A study of Mus musculus with 4 samples.

Results

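Cycling basal cells of the mouse mammary gland are taken here as the barcodes that scored for a basal panel and carried transcripts of dividing cells. For each barcode, counts of unique molecular identifiers (UMIs, 1 per captured transcript) were scaled to 10000, logged, and expressed as z-scores over all 36884 barcodes. A barcode was called basal when its mean z-score over Krt5, Krt14, Krt17, Acta2, Myh11, Cnn1, Oxtr and Trp63 exceeded 0.3 and lay at least 0.5 above the means of 2 other panels. These were a luminal progenitor panel (Elf5, Kit, Aldh1a3, Csn3, Ltf, Wfdc18, Cd14 and Trf) and a hormone-sensing panel (Prlr, Esr1, Pgr, Areg, Cited1, Foxa1, Fxyd2 and Ly6a). Of 11050 basal barcodes, 123 held at least 4 UMIs over Mki67, Top2a, Birc5, Ube2c and Cdk1, and these 123 are the cycling basal barcodes, which were chosen by their measured counts of panel and cycle genes. The other 10927 basal barcodes served for comparison.

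Basal cells form the outer layer of mammary ducts and include contractile myoepithelial cells, which squeeze milk out under oxytocin, and progenitors that renew the layer. A dividing cell first licenses and copies its DNA, with genes driven by E2F factors, and then assembles a spindle and divides, with genes driven by the MYBL2 and FOXM1 complexes. Transcripts of both programmes are degraded or switched off in resting cells, so they mark cells that are in the cycle.

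The series compared control mice with mice labelled Zeb1 MSKO, all of the C57BL/B6 strain, by droplet sequencing of mammary gland cells sorted by flow cytometry. Each genotype had 1 library at 8 weeks and 1 at 9 weeks of age, 4 libraries in all. The labels do not expand MSKO, name the deleted part of Zeb1 or its driver, or give the sort markers. Nor do they tie each library to an animal of its own. The cycling basal barcodes numbered 35 (control) and 32 (Zeb1 MSKO) at 8 weeks, and 12 (control) and 44 (Zeb1 MSKO) at 9 weeks. Their summed counts were 611590, 677264, 251341 and 755920 UMIs in that order, so that 3 UMIs stood for 4.91, 4.43, 11.9 and 3.97 counts in each 1000000 (CPM).

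Zeb1, the targeted gene, encodes a zinc-finger repressor of epithelial genes and was nearly undetected in these cells. The control library at 8 weeks held 1 Zeb1 UMI in cycling basal barcodes (1.64 CPM) and the other libraries held 0. Other basal barcodes held 0.611, 1.11, 0.157 and 0.24 CPM (control and Zeb1 MSKO at 8 weeks, then control and Zeb1 MSKO at 9 weeks). Its paralog Zeb2 showed the same pattern, with 1 UMI in the control library at 8 weeks and 0 elsewhere. Because the deleted part is not stated, they are no check of the genotypes.

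Promoters of 6 cycle genes are shown first, to set motifs of late and early cycle genes side by side. Ube2c and Cdk1 are rule genes, so their high level follows from the choice of members. The 150 bases before the RefSeq start (build GRCm38.p6) are printed 5′ to 3′ on the strand of the gene for 4 genes of G2 and mitosis and 2 genes of S phase. Capitals mark matches on either strand. The motif CCAAT is the box bound by the factor NF-Y. The motif TTTGAA is the core of the cell cycle homology region. The motifs TTTCCCGC and TTTGGCGC are of the E2F type. Ube2c, an E2 enzyme of the anaphase-promoting complex, starts its window at chr2:164769779-164769928 on the plus strand. Cdk1, the kinase of mitotic entry, has chr10:69352913-69353062 on the minus strand. Cdc20, the activator of the anaphase-promoting complex, has chr4:118437344-118437493 on the minus strand, and Ccnb2, a B-type cyclin, chr9:70421555-70421704 on the minus strand. Mcm6, a subunit of the replicative helicase, has chr1:128359706-128359855 on the minus strand, and Cdc6, which loads that helicase, chr11:98908001-98908150 on the plus strand.
Ube2c: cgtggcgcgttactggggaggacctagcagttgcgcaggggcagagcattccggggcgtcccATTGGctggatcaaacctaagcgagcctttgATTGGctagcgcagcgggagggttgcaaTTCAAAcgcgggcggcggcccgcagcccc
Cdk1: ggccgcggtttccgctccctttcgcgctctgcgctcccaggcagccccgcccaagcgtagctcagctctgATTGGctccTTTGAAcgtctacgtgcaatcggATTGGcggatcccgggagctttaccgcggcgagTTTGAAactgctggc
Cdc20: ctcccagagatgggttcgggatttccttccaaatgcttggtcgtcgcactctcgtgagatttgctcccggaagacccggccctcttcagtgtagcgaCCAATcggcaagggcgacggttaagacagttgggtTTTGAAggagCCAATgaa
Ccnb2: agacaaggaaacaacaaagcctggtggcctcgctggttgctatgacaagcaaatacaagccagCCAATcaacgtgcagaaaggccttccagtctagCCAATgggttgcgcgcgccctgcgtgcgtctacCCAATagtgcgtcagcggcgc
Mcm6: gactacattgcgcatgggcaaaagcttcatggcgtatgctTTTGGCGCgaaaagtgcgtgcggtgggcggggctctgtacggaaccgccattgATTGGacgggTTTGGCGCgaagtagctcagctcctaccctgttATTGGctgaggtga
Cdc6: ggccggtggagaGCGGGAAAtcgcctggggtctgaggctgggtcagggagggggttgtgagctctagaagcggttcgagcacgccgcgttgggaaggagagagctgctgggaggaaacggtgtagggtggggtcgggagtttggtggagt

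Pairs of CCAAT letters lay 31 bases apart in the Ube2c window, 32 in Cdk1, 45 in Cdc20, 43 in Mcm6 and, in a run of 3, 33 and 33 in Ccnb2, and the Cdc6 window held none. TTTGAA began 29 bases before the start in Ube2c, 71 and 15 in Cdk1 and 18 in Cdc20, and the Ccnb2 window held none. The Mcm6 window held TTTGGCGC at 110 and 47 bases before the start, and the Cdc6 window held TTTCCCGC, as its reverse complement, at 138. Over full RefSeq promoters of 300 bases (250 before to 50 after the start), TTTGAA was present in 30 of 46 promoters of the 47-gene G2/M list (65.2%). It was present in 6 of 33 promoters of the 42-gene S list (18.2%), 1 of 23 contractile promoters (4.35%) and 17.9% of all 32851 promoters. Either E2F-type motif was present in 10 of 33 S promoters (30.3%) and 2 of 46 G2/M promoters (4.35%), against 1.56% of all promoters. CCAAT was common in all, at 73.9% of G2/M, 66.7% of S and 37.4% of all promoters. The table held promoters for 41 of the 47 G2/M genes and 30 of the 42 S genes, some with more than 1 start. These matches describe letters in a window and are not binding sites.

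The label was checked against markers before any result. Acta2, Trp63 and Krt5 belong to the panel that called a barcode basal, so their levels describe the members and do not test the label. In the control library at 8 weeks and both libraries at 9 weeks, every cycling basal barcode carried smooth muscle actin, Acta2, at 10 UMIs or more. The lowest, median and highest Acta2 count was 15, 131 and 389 UMIs in the control at 8 weeks. It was 56, 161.5 and 237 in the control at 9 weeks, and 31, 120.5 and 408 in Zeb1 MSKO at 9 weeks. The Zeb1 MSKO library at 8 weeks stood apart, with 0, 5 and 98 UMIs and with 18 of its 32 barcodes below 10. In that library 26 of the 32 barcodes also held at least 2 UMIs over 6 hair keratins (Krt25, Krt27, Krt28, Krt35, Krt71 and Krt73, structural proteins of the hair shaft and its root sheath). This compared with 1 of 35, 1 of 12 and 3 of 44 in the other libraries, and with 2.31% of the other basal barcodes of the same library. Only 4 of its 32 barcodes had both 10 or more Acta2 UMIs and fewer than 2 hair keratin UMIs.

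**Figure D1:**
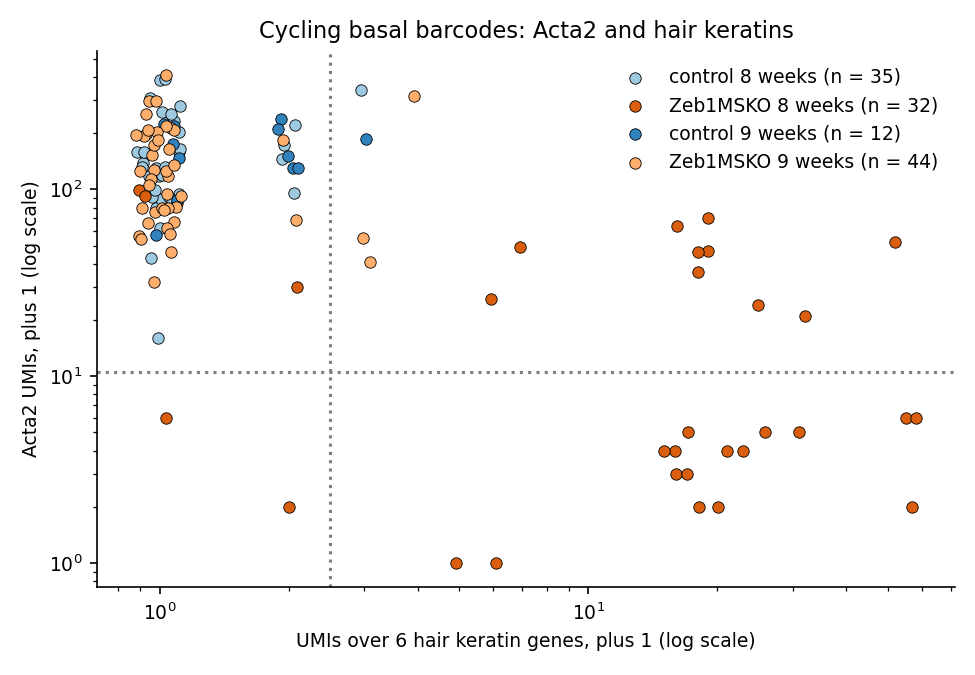
Acta2 UMIs (vertical, plus 1, log scale) against UMIs summed over 6 hair keratin genes (horizontal, plus 1, log scale) in each of the 123 cycling basal barcodes, coloured by library. Points are shifted slightly sideways, dotted lines part counts below 10 Acta2 UMIs and below 2 hair keratin UMIs from the rest, and the 26 barcodes to the right from Zeb1 MSKO at 8 weeks contrast with 1, 1 and 3 from the other libraries.

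The hair keratins summed to 870 CPM in cycling basal barcodes of Zeb1 MSKO at 8 weeks, against 9.81, 27.9 and 11.9 CPM in the other libraries. Krt25 held 213 UMIs there (315 CPM) and 0 UMIs in each other library, at least 64.1-fold higher than the floor of 3 UMIs in the control at 8 weeks. The Wnt effector Lef1 held 94 UMIs there and 0 elsewhere. Dcn, a matrix proteoglycan, stood at 1240 CPM there against 186, 310 and 368 CPM, while Vim, the intermediate filament of mesenchymal and myoepithelial cells, stood at 62.0 against 571, 724 and 347 CPM. For these barcodes the data go against the basal label. The panel genes Trp63 (232 against 62.1, 79.6 and 93.9 CPM) and Krt5 (759 against 683, 477 and 403 CPM) were among those that admitted them. Counts are therefore given for all barcodes and, as an alternative chosen after seeing the data, without basal barcodes holding 2 or more hair keratin UMIs, which left 34, 6, 11 and 41 cycling barcodes.

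Markers of other cell types differed between libraries, and Zeb1 MSKO at 8 weeks had the highest sums for hair and epidermis and for fibroblasts. The 13 hair and epidermis markers in the matrix summed to 2240, 3840, 2770 and 2090 CPM, against 2340, 2170, 2020 and 2210 in other basal barcodes. The 8 fibroblast markers summed to 281, 1300, 354 and 410 CPM, against 328, 449, 283 and 213 in other basal barcodes (control and Zeb1 MSKO at 8 weeks, then at 9 weeks), of which Dcn made up most, while the collagen gene Col1a1 stood at 4.91, 1.48, 0 and 1.32 CPM. The 10 leukocyte markers summed to 38.4 to 159 CPM, with Ptprc at 0, 1, 0 and 0 UMIs. The 8 endothelial markers summed to 3.27 to 16.2 CPM and the 10 pericyte markers to 8.86 to 39.8 CPM, with Rgs5 at 2, 0, 1 and 0 UMIs. The 14 general luminal markers summed to 1890 to 3290 CPM, below the 4130 to 4770 CPM of other basal barcodes.

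Cycling barcodes were deeper than other basal barcodes, with median totals of 17454, 20658, 19534.5 and 16750.5 UMIs against 7705, 5624, 8052 and 7819. At an equal 2500 UMIs they still showed more genes, with medians of 1215, 1166, 1205.5 and 1208 against 1088, 1115, 1080 and 1095. Doublets, droplets with more than 1 cell, were called in 4 of 35, 9 of 32, 3 of 12 and 1 of 44 cycling barcodes, against 1.21% to 2.24% of other basal barcodes. Between libraries, 7 cycling basal barcodes shared a barcode sequence with another library (0 of 35, 1 of 32, 0 of 12 and 6 of 44). Over all barcodes 372 of 9790, 336 of 9693, 302 of 7627 and 362 of 9774 did so, a smaller part than the 6 of 44. The part of shared sequences in the results was not tested. The part of depth and doublets in the results was not tested beyond the alternatives given.

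The rule fixed the limit of 4 UMIs, and 11 barcodes sat at 4 while 16 sat just below at 3. Most members were far above the limit: 96 of the 123 held 8 or more. Cdk1 was seen in 109 members, Birc5, the survivin subunit of the chromosomal passenger complex, in 107, and Mki67, a coat protein of mitotic chromosomes, in 105. Top2a, which untangles replicated DNA, was seen in 104 and Ube2c in 93. These genes chose the members, so their levels are a description only.

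Cycling barcodes made up 1.95% of basal barcodes in the control at 8 weeks (Wilson 95% interval 1.41 to 2.70, covering counting error only). They made up 0.679% in Zeb1 MSKO at 8 weeks (0.481 to 0.957), 0.569% in the control at 9 weeks (0.326 to 0.992) and 1.81% in Zeb1 MSKO at 9 weeks (1.35 to 2.42). The higher value thus fell to the control at 8 weeks and to Zeb1 MSKO at 9 weeks, and the genotypes overlapped. The mean was 1.26% ± 0.979 in controls and 1.24% ± 0.798 in Zeb1 MSKO (SD, n = 2 each; two-sided exact permutation p = 1, where 0.333 is the smallest p the design allows). After thinning each barcode to 2500 UMIs, with a limit of 2 UMIs, the shares were 1.51%, 0.488%, 0.237% and 1.27%. Without hair keratin barcodes the share of Zeb1 MSKO at 8 weeks was 0.131%, from 6 barcodes, and the others were 1.91%, 0.527% and 1.70%.

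Luminal progenitors, called from their own panel by the same rule, cycled more often than basal barcodes in each of the 4 libraries. Their shares were 7.01%, 0.855%, 1.34% and 2.24% (control and Zeb1 MSKO at 8 weeks, then at 9 weeks). The mean difference was 1.61 percentage points (two-sided exact permutation p = 0.125, the smallest that 4 pairs allow, and 0.25 adjusted over 2 lineage pairs). It was 0.459 points without the control at 8 weeks, where 270 luminal progenitors were cycling. Hormone-sensing barcodes cycled at 0.543%, 0.850%, 0.329% and 1.95%, above basal barcodes in 2 of 4 libraries (exact permutation p = 0.625).

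**Figure D2:**
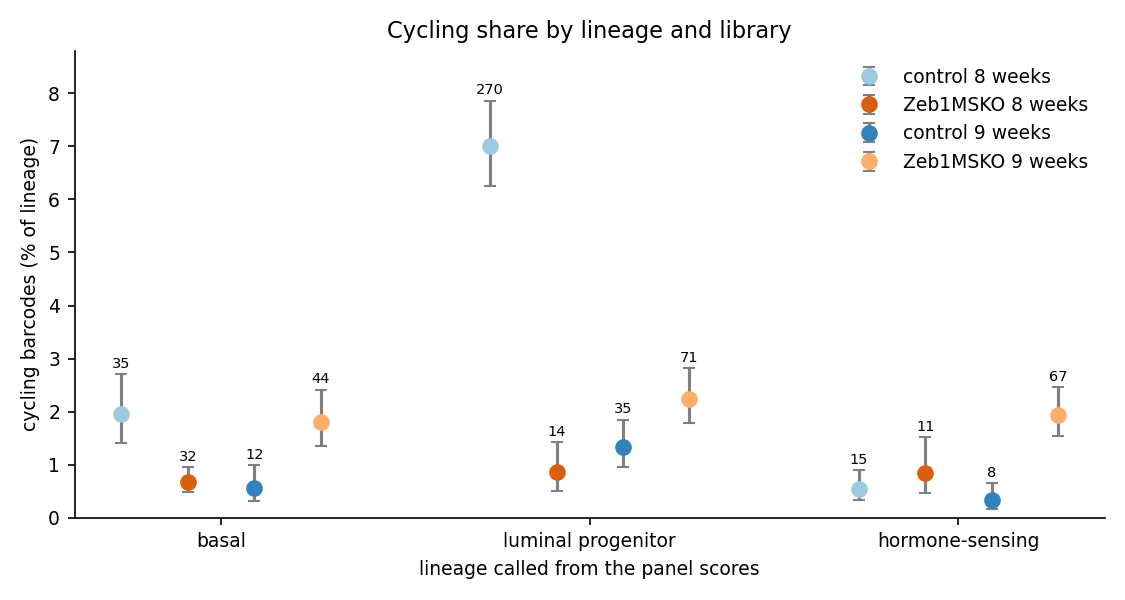
Cycling barcodes as a percentage of each lineage, by library; bars are Wilson 95% intervals and numbers are cycling barcodes. Basal shares run from 0.569% to 1.95%, and the control library at 8 weeks has 7.01% in luminal progenitors.

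Between cycling and other basal barcodes, a gene was counted as higher or lower when its CPM ratio passed 1.5-fold the same way in all 4 libraries. Of 9314 genes averaging 5 CPM or more over the 8 sums, 685 were higher (7.35%) and 262 lower (2.81%). The rule split these same cells by cycle genes, so this contrast has no test. Counts of gene groups below are to be read beside these 2 shares. The shares cover genes averaging 5 CPM or more, whereas group sizes include members under that limit, which could not be counted. With Zeb1 MSKO at 8 weeks left out the counts were 851 of 9234 (9.22%) and 311 (3.37%), and 671 and 255 genes were shared with the counts over 4 libraries. Without hair keratin barcodes they were 620 of 9264 (6.69%) and 243 (2.62%). Against other basal barcodes matched in depth the counts were 481 of 9445 (5.09%) and 157 (1.66%). Of the 685 higher and 262 lower genes, 434 and 94 were also counted in that setting.

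Cyclins and their kinases showed which steps of the cycle were captured. Ccnb1, the B cyclin that opens mitosis, stood at 137, 167, 127 and 160 CPM in cycling barcodes against 0.815, 1.18, 0.47 and 0.767 CPM in other basal barcodes. Its log2 ratio of CPM + 1 was 6.37 ± 0.13 (SD over 4 libraries), nearly the same in every library. Ccna2, the cyclin of S phase and G2, stood at 142, 155, 99.5 and 157 CPM against at most 1.02, a log2 ratio of 6.40 ± 0.25. The G1 cyclins moved less: Ccnd1 reached 55.6, 35.4, 39.8 and 88.6 CPM against 19.6, 9.67, 10.8 and 39.3, a log2 ratio of 1.54 ± 0.30. Ccne2, a cyclin of S-phase entry, had 20, 12, 0 and 9 UMIs and so missed the count through the control at 9 weeks. In all, 12 of 17 cyclins, cyclin-dependent kinases and CDC25 phosphatases were higher in all 4 libraries and none was lower, and without hair keratin barcodes, which leaves 6 in Zeb1 MSKO at 8 weeks, 8 were higher.

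Inhibitors of the cyclin-dependent kinases went different ways. Cdkn3, a phosphatase of the mitotic period, stood at 55.6, 23.6, 79.6 and 51.6 CPM against 0.269 to 1.90, and Cdkn2c (p18) at 76.8, 38.4, 23.9 and 72.8 against 3.41 to 7.79. These were the 2 of 8 inhibitors that were higher in every library, against 7.35% of all genes. Without hair keratin barcodes 2 of 8 were higher as well, and no test of the group was run. Cdkn1a (p21), which arrests the cycle, stood at 141, 78.3, 51.7 and 46.3 CPM against 168, 231, 225 and 106, lower by 1.5-fold in 3 of the 4 libraries. Cdkn1b (p27) was at 19.6, 29.5, 35.8 and 34.4 CPM against 14.1 to 17.2.

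Among regulators, 6 of 17 E2F, RB-family, MYB-complex and FOXM1 genes were higher in all libraries, against 7.35% of all genes. Without hair keratin barcodes 5 were higher and 1 lower. Foxm1, the factor of late cycle genes, stood at 22.9, 26.6, 23.9 and 30.4 CPM against 0.384 to 0.747, a log2 ratio of 4.13 ± 0.32. Mybl2, its partner in the MuvB complex, stood at 26.2, 31.0, 7.96 and 34.4 CPM against 1.85 to 4.99. E2f1, an activator of replication genes, stood at 55.6, 35.4, 7.96 and 17.2 CPM, and the repressor E2f8 at 31.1, 17.7, 11.9 and 18.5 CPM. Rbl1 and Lin9 completed the count, whereas Rb1 itself held 1, 16, 2 and 5 UMIs with no common direction.

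Replication genes were higher in most but not all cases. Of 28 genes of origin licensing and the replication fork, 22 were higher in every library, as were 10 of 12 genes of nucleotide supply. These counts were 21 and 7 without hair keratin barcodes. Mcm5, of the helicase ring, stood at 118, 161, 51.7 and 147 CPM against 6.79, 3.33, 2.82 and 11. Rrm2, which makes deoxynucleotides, stood at 204, 294, 43.8 and 149 CPM against 3.61 to 7.26, a log2 ratio of 4.49 ± 0.83. Pcna, the sliding clamp, missed the count: it was 39.8 CPM in the control at 9 weeks against 39.1 in its other basal barcodes, while the other libraries gave 226, 183 and 108 against 65.9, 73.3 and 40.1. The PCNA-binding factor 2810417H13Rik reached 414, 468, 191 and 356 CPM against 1.20 to 3.74. The control library at 9 weeks, with the fewest barcodes, had the lowest value of each of these replication genes.

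The machinery of mitosis was higher nearly throughout. All 15 mitotic kinase and checkpoint genes and all 15 kinetochore genes in the matrix were higher in the 4 libraries, as were 22 of 24 spindle and cytokinesis genes. Aurkb, the kinase of the chromosomal passenger complex, stood at 83.4, 67.9, 35.8 and 80.7 CPM against 0.0523 to 0.611. Cenpa, the histone that marks centromeres, stood at 288, 185, 434 and 311 CPM against 16.6, 7.89, 8.83 and 7.67. Cdc20 stood at 191, 264, 267 and 249 CPM against 5.84, 4, 2.61 and 3.17. The 15 genes with the largest ratio in their least library, outside the rule genes, were Ccnb1, 2810417H13Rik, Ccna2, Hist1h2ap, Cdca8, Hmmr, Aurkb, Ska1, Nusap1, Racgap1, Ckap2l, Pbk, Cdca3, Tacc3 and Cdc20. Of the mitotic kinase, kinetochore and spindle genes, 15, 15 and 23 were higher with Zeb1 MSKO at 8 weeks left out, and 12, 15 and 19 without hair keratin barcodes.

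Chromatin proteins of dividing cells followed, with 18 of 22 higher in every library and 9 of 12 condensin and cohesin genes. H2afz, a variant histone, stood at 3050, 2430, 1940 and 2260 CPM against 861, 863, 495 and 469. Hmgb2, which bends DNA, stood at 1240, 1500, 1100 and 1280 CPM against 81.6 to 107, a log2 ratio of 3.83 ± 0.26. Growth genes moved far less: 2 of 24 ribosome biogenesis and MYC genes were higher and Myc itself was lower, at 121, 51.7, 83.6 and 64.8 CPM against 208, 209, 137 and 103. These counts are near the shares over all genes (7.35% higher and 2.81% lower). None of 16 glycolysis genes was higher, and Slc2a1, Aldoa and Slc16a1 were lower, with 2 lower without hair keratin barcodes. Of 24 DNA damage and p53 genes, 5 were higher in every library and 3 lower, and without hair keratin barcodes these were 4 and 4. The 3 lower genes were the stress genes Gadd45a, Gadd45b and Sesn2. The glycolysis genes that were lower, and the DNA damage genes either way, exceeded the shares over all genes, and no test of these groups was run.

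**Figure D3:**
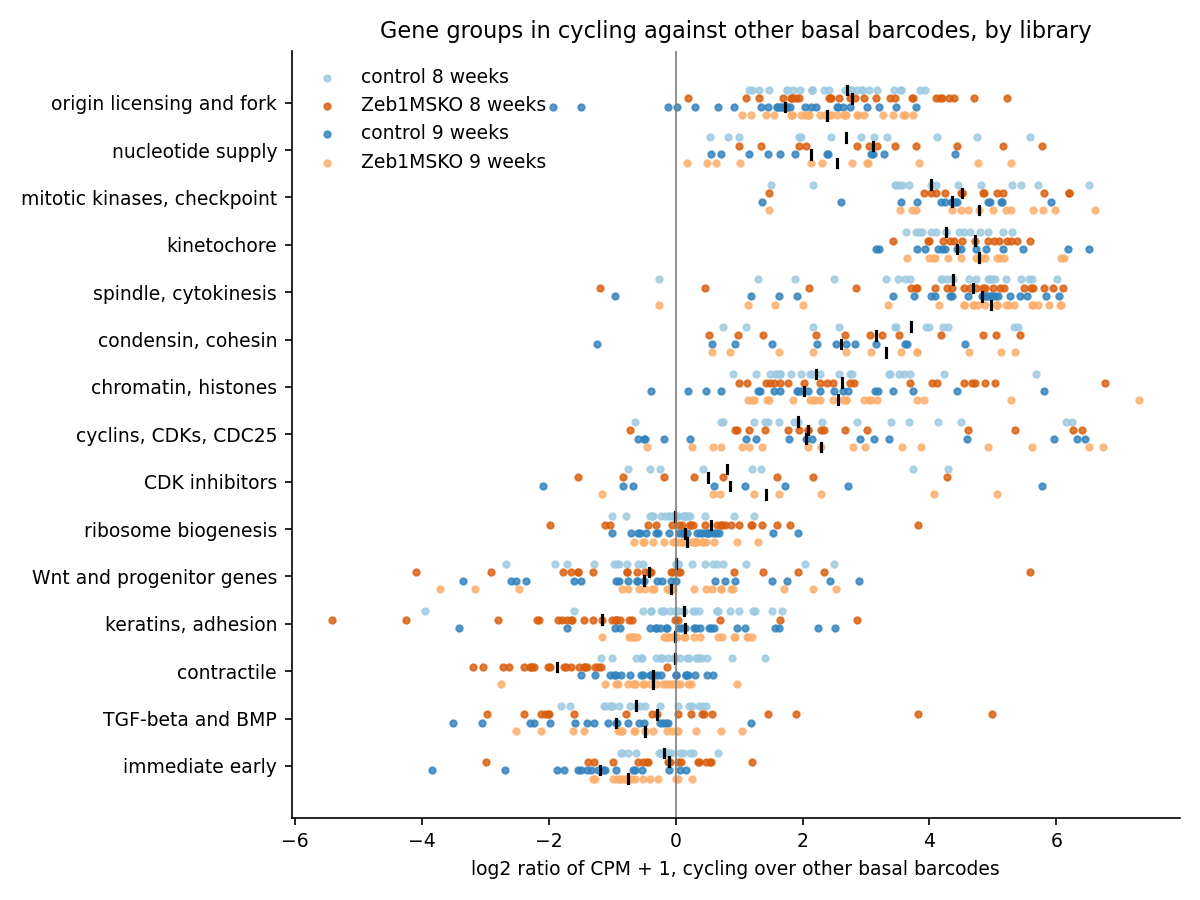
Log2 ratio of CPM + 1 (horizontal) between cycling and other basal barcodes for each gene of 15 groups (vertical); points are genes, colours are libraries and black ticks are medians within a library. Mitotic groups lie furthest to the right, and contractile genes lie to the left in Zeb1 MSKO at 8 weeks, whose barcodes carried hair keratins.

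Among groups of basal identity genes outside the rule, no keratin and adhesion, contractile or transcription factor gene was higher, against 7.35% of all genes. In each of these groups 1 gene was lower, against 2.81% of all genes. Without hair keratin barcodes 2, 0 and 0 were higher and 0, 2 and 1 lower, in that order. The shares over all genes were then 6.69% and 2.62%, and no test of these groups was run. Of 22 contractile genes none was higher and only Synm, an intermediate filament protein, was lower in all 4 libraries. Tagln (transgelin), which binds actin filaments, stood at 2700, 2060 and 1890 CPM in the control at 8 weeks and the libraries at 9 weeks, against 3950, 3930 and 4120. In Zeb1 MSKO at 8 weeks it stood at 307 against 2020 CPM. Actg2, enteric actin, stood at 1160, 800 and 796 CPM in the former 3 libraries, against 626, 532 and 783, and at 41.3 against 169 CPM in the latter. The Acta2 log2 ratio was -0.34 ± 0.28 over 3 libraries and -2.31 in Zeb1 MSKO at 8 weeks.

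Krt14, the basal keratin of the panel, stood at 2590, 1070, 1410 and 1190 CPM against 3840, 4430, 4470 and 3200, lower in all 4 libraries but by less than 1.5-fold in the control at 8 weeks. Krt15, a keratin of basal progenitors, had no common direction, at 1470, 337, 545 and 384 CPM against 813, 342, 647 and 346. Per barcode the median Krt15 count was 20, 3.5, 7.5 and 3 UMIs. Of 18 basal transcription factors only Runx1 was lower (224, 174, 159 and 103 CPM against 356, 577, 367 and 234) and none was higher. With Zeb1 MSKO at 8 weeks left out, 3 of 25 keratin and adhesion genes and 2 of the 18 transcription factors were higher, against 9.22% of all genes. Esrp1, a splicing factor of epithelia, was the single higher gene among 26 epithelial junction genes and regulators, against 7.35% of all genes. Without hair keratin barcodes 0 of the 26 were higher.

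Wnt pathway and progenitor genes divided. Axin2, a feedback target of Wnt signalling, stood at 11.4, 10.3, 11.9 and 10.6 CPM against 6.38, 3.39, 3.55 and 6.09, on 7, 7, 3 and 8 UMIs. The ligand gene Wnt6 stood at 121, 53.2, 139 and 153 CPM against 20.6, 9.74, 25.0 and 33.6, a log2 ratio of 2.35 ± 0.15. These were the 2 of 23 genes higher in every library. Another 5 were lower: Lgr5, a receptor for R-spondins, stood at 24.5, 20.7, 3.98 and 5.29 CPM against 49.4 to 62.0. Tspan8, a tetraspanin of basal progenitors, stood at 32.7, 8.86, 19.9 and 2.65 CPM against 125, 167, 106 and 47.1. The secreted modulators Sfrp1 and Dkk3 and the ligand gene Wnt11 were the other lower members. Without hair keratin barcodes 1 was higher and 3 lower, and with Zeb1 MSKO at 8 weeks left out 4 were higher and 5 lower. The count of 2 of 23 is near the 7.35% of all genes that were higher. The count of 5 of 23 is above the 2.81% of all genes that were lower, and no test of the group was run.

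The 15 genes with the largest fall in their least library were C4b, Tspan8, Maff, Sfrp1, Mmp2, Scn7a, Ctsl, Pla2g7, Batf, Serping1, Ccl7, C1s1, Ak1, Slpi and Parm1. Of these C4b, C1s1 and Serping1 belong to the complement pathway. C4b held 1, 2, 2 and 1 UMIs against 24.0, 33.7, 36.4 and 27.0 CPM in other basal barcodes. Slpi, a secreted protease inhibitor, stood at 1010, 613, 545 and 353 CPM against 2790, 4250, 3810 and 2760, and Ctsl, a lysosomal protease, at 360, 346, 390 and 228 CPM against 1160, 1830, 1210 and 681. Among signalling groups, Tgfbr1 and Skil were the lower members of 19 TGF-beta and BMP genes, Igfbp5 of 25 growth factor genes and Klf2 of 18 immediate early genes. Counts of 1 of 25 and 1 of 18 are near the 2.81% of all genes that were lower, and 2 of 19 is above it. Of these 25, 18 and 19 genes, 20, 18 and 16 averaged 5 CPM or more, the limit for the share. With Zeb1 MSKO at 8 weeks left out, 5 of 19, 2 of 25 and 3 of 18 were lower, against 3.37% of all genes. No test of these groups was run.

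Within the cycling barcodes, S and G2/M transcripts were counted side by side in each barcode, over 42 and 47 genes that hold no rule gene. The S genes took 31.3% of both at the median, with a range from 3.75% to 70.6%. In 38 of 123 barcodes S transcripts were the larger part, and in 43 they were below 20% of the sum. Library medians were 38.3%, 26.7%, 16.3% and 36.4%, and the control at 9 weeks, with 12 barcodes, had 8 of them below 20%. Without hair keratin barcodes S transcripts were the larger part in 26 of 92 barcodes and below 20% in 35, with a median of 33.7%. Library medians were then 36.7%, 38.3%, 14% and 37.8%, the value of Zeb1 MSKO at 8 weeks resting on 6 barcodes. The 5 rule genes are themselves mostly genes of S phase to mitosis, so members describe that part of the cycle.

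**Figure D4:**
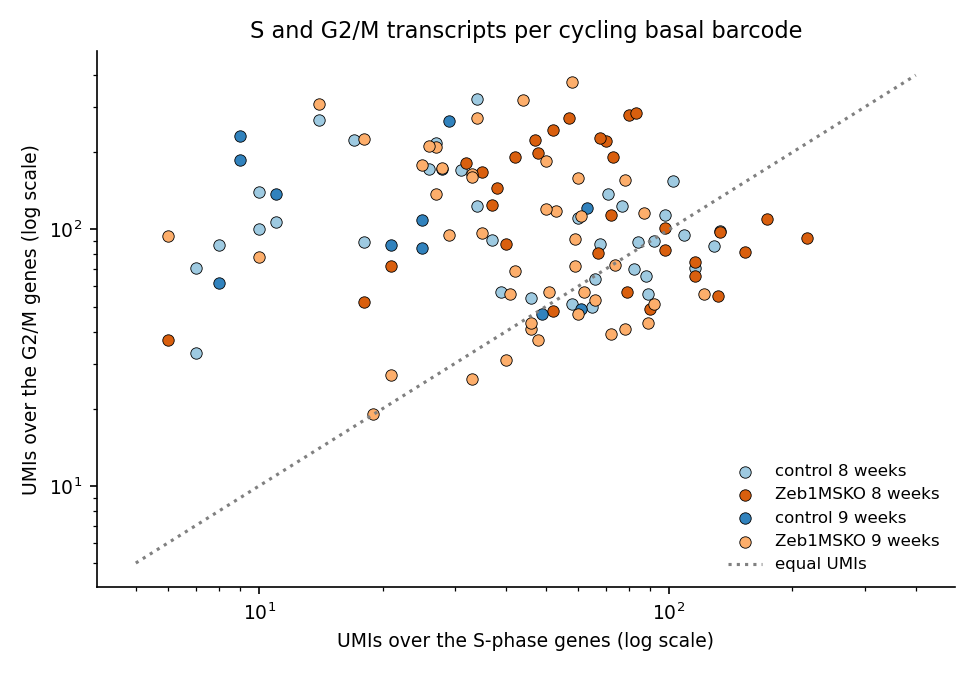
UMIs over 47 G2/M genes (vertical, log scale) against UMIs over 42 S genes (horizontal, log scale) in each cycling basal barcode, coloured by library. The dotted line marks equal counts, and 38 of the 123 barcodes lie below it.

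The genotype comparison asked whether cycling basal barcodes differed between Zeb1 MSKO and control, with counts summed per library. The 2 libraries of a genotype differed in age, and the main fit held no age term. Its spread within a genotype thus includes any difference between ages or batches. No gene passed (edgeR quasi-likelihood test, Benjamini-Hochberg adjusted p under 0.05, 0 of 6546, 0%), with 195 genes at an unadjusted p under 0.05 and 0 calls by DESeq2. Other basal barcodes gave 0 of 12968 (0%), with 68 at an unadjusted p under 0.05, 2 calls by DESeq2 and 3 with age as a block. The smallest unadjusted p among genes moving the same way at both ages belonged to Nptn, an adhesion protein of the immunoglobulin family. Nptn stood at 137 and 111 CPM in controls and 36.9 and 35.7 in Zeb1 MSKO, without overlap (log2 fold change -1.78, SE 0.37, edgeR adjusted p = 0.998). Wfdc18, a gene of the luminal progenitor panel and so part of the rule, stood at 65.4 and 63.7 CPM in controls and 368 and 196 in Zeb1 MSKO, and its test is not used. Sncg, a synuclein, stood at 68.7 and 19.9 CPM against 2.95 and 5.29, and Hist1h2ap, a replication-dependent histone, at 113 and 63.7 against 233 and 257. Neither passed the threshold. Without Zeb1 MSKO at 8 weeks 1 gene was called, the glutathione transferase gene Gstp1 (73.6 and 55.7 CPM in controls, 2.65 in Zeb1 MSKO at 9 weeks and 70.9 in the library left out). Without Zeb1 MSKO at 9 weeks 449 genes were called, against the lone library rich in hair keratins, and without a filter on low counts 54.

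Cycle genes did not pass between genotypes either, and 0 of 39 S and 0 of 44 G2/M genes tested reached an unadjusted p under 0.05. Their median log2 fold changes were 0.39 and 0.22, against 0.02 over all genes tested. Without hair keratin barcodes 13 G2/M genes were higher and 28 lower, against 32 and 12 with them. All 19 contractile genes tested had a negative value in Zeb1 MSKO, at a median of -0.76, and none passed. Over all genes tested 3160 of 6546 were negative, and in other basal barcodes 17 of 21 contractile genes were, at a median of -0.17. The median was -0.40 without hair keratin barcodes, with 17 of 18 negative, on 6 cycling barcodes in Zeb1 MSKO at 8 weeks. The 22 contractile genes summed to 3170 CPM in cycling barcodes of Zeb1 MSKO at 8 weeks, against 13500 to 15500 in the other libraries. At 9 against 8 weeks all 19 had a positive value. The part of that library in these signs was not tested further. Krt15 had a log2 fold change of -1.48 (SE 0.48, edgeR adjusted p = 0.998), and -0.48 without hair keratin barcodes.

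Whether genotype acted differently in cycling and other basal barcodes was tested as an interaction in a fit that held each library as a block. There were 8 calls among 12668 genes (0.0632%), 5 with a positive and 3 with a negative sign. Id1, an inhibitor of helix-loop-helix factors, stood at 14.7, 515, 7.96 and 11.9 CPM in cycling barcodes (control and Zeb1 MSKO at 8 weeks, then at 9 weeks) against 33.3, 35.7, 73.3 and 34.2 in other basal barcodes. Its interaction was 3.68 on the log2 scale (SE 0.62, edgeR adjusted p = 4.03e-05). The high value was that of Zeb1 MSKO at 8 weeks alone, which also held for the homeobox gene Msx1 (0, 170, 0 and 2 UMIs, at least 51.2-fold above the floor of the control at 8 weeks), Id3, the polyamine enzyme Sat1 and the claudin Cldn10. Of the 3 negative calls, Igfbp2, a binding protein of insulin-like growth factors, stood at 777, 51.7, 1240 and 1080 CPM against 293, 109, 181 and 429. The galectin Lgals1 stood at 2380, 182, 1890 and 1250 CPM against 1910, 1120, 1210 and 1610, again lowest in Zeb1 MSKO at 8 weeks.

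These calls moved with the hair keratin barcodes. With such barcodes left out there were again 8 calls, of which 2, Lgals1 and Sncg, were among the 8 above. Lgals1 then had an interaction of -1.58 (SE 0.26, edgeR adjusted p = 1.01e-05), while Id1 stood at 1.69 and Sat1 at 0.29, neither past the threshold, and Cldn10 at -0.37, of opposite sign. Only 6 cycling barcodes remained in Zeb1 MSKO at 8 weeks for that fit, and 2 of them held fewer than 10 Acta2 UMIs. In these 6 the luminal progenitor panel summed to 2300 CPM. After the same filter it summed to 228 CPM (control, 8 weeks), 498 (control, 9 weeks) and 649 (Zeb1 MSKO, 9 weeks). Wfdc18, a gene of that panel, was among the 8 calls of that fit. These calls are therefore not shown to belong to basal cells. Leaving out that library, the control at 8 weeks or the control at 9 weeks left 1 call each, leaving out Zeb1 MSKO at 9 weeks gave 634, and DESeq2 gave 0 calls, with 122 genes at an unadjusted p under 0.05. The single call without Zeb1 MSKO at 8 weeks was Chil1, a chitinase-like secreted protein (interaction -1.83, SE 0.39, edgeR adjusted p = 0.0412). Chil1 stood at 71.9, 446 and 38.4 CPM in cycling barcodes of the 3 libraries kept, against 623, 1190 and 638 in other basal barcodes.

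Between ages, Cebpb was the 1 gene of 6546 called in cycling basal barcodes (0.0153%). Cebpb, a leucine zipper factor of mammary lineage decisions, stood at 1400 and 1150 CPM at 8 weeks and at 3.98 and 22.5 CPM at 9 weeks (control, then Zeb1 MSKO). The ages did not overlap (log2 fold change -6.33, SE 0.56, edgeR adjusted p = 0.0129). Other basal barcodes, which the test did not use, showed 2050 and 2930 CPM at 8 weeks and 29.1 and 23.6 CPM at 9 weeks. With genotype as a block, or without mitochondrial, low-gene and doublet barcodes, there were 0 calls, with 512 and 334 genes at an unadjusted p under 0.05. DESeq2 gave 18 calls. Leaving out the control or Zeb1 MSKO library at 9 weeks gave 0 calls each, while leaving out the control at 8 weeks gave 984 and Zeb1 MSKO at 8 weeks 174.

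Without hair keratin barcodes, 34 of 4911 genes were called between ages (0.692%), 31 lower and 3 higher at 9 weeks. Of these, 33 had the same sign in other basal barcodes. Those barcodes come from the same 4 libraries and carry any batch difference that these hold. The share of all tested genes with the same sign was not computed, so the 33 have no background to be set against. Id4, a regulator of basal fate, stood at 162 and 118 CPM at 8 weeks over all cycling barcodes and at 19.9 and 25.1 at 9 weeks. The log2 fold change without hair keratin barcodes was -2.84 (SE 0.37, edgeR adjusted p = 0.00268). The stress-linked genes Jund (531 and 608 against 151 and 97.9 CPM) and Hspa1a (347 and 688 against 51.7 and 116 CPM) were also lower at 9 weeks. Krt15 was called lower as well in that fit, by a log2 fold change of -1.54 (edgeR adjusted p = 0.0288), and this was -0.96 and not past the threshold with all barcodes. That call rested on few barcodes: the 6 left in Zeb1 MSKO at 8 weeks held 0, 4, 85, 0, 5 and 26 Krt15 UMIs, and the barcode with 85 held 1 Acta2 UMI. Over all barcodes Zeb1 MSKO stood at 337 CPM at 8 weeks and 384 at 9 weeks, the other way from the controls at 1470 and 545. In other basal barcodes Krt15 differed by -0.16.

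The 3 genes higher at 9 weeks were Cyr61, Etv5 and Gm42418. Cyr61, a matrix-bound target of YAP, stood at 42.5 and 38.4 CPM at 8 weeks and at 191 and 190 CPM at 9 weeks in cycling barcodes. It was the exception in sign, at 229 and 215 CPM at 8 weeks against 130 and 147 CPM at 9 weeks in other basal barcodes; the difference between these 2 changes was not tested. Etv5, an ETS factor downstream of growth factor receptors, stood at 16.4 and 20.7 against 75.6 and 108 CPM, and Gm42418, a locus overlapping ribosomal RNA, at 94.8 and 94.5 against 275 and 280 CPM. The median GC content of the 31 lower genes was 55.3%, against 49.4% over all genes tested, and its part in the result was not tested. With 1 library per genotype at each age, age and preparation or sequencing batch cannot be told apart.

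**Figure D5:**
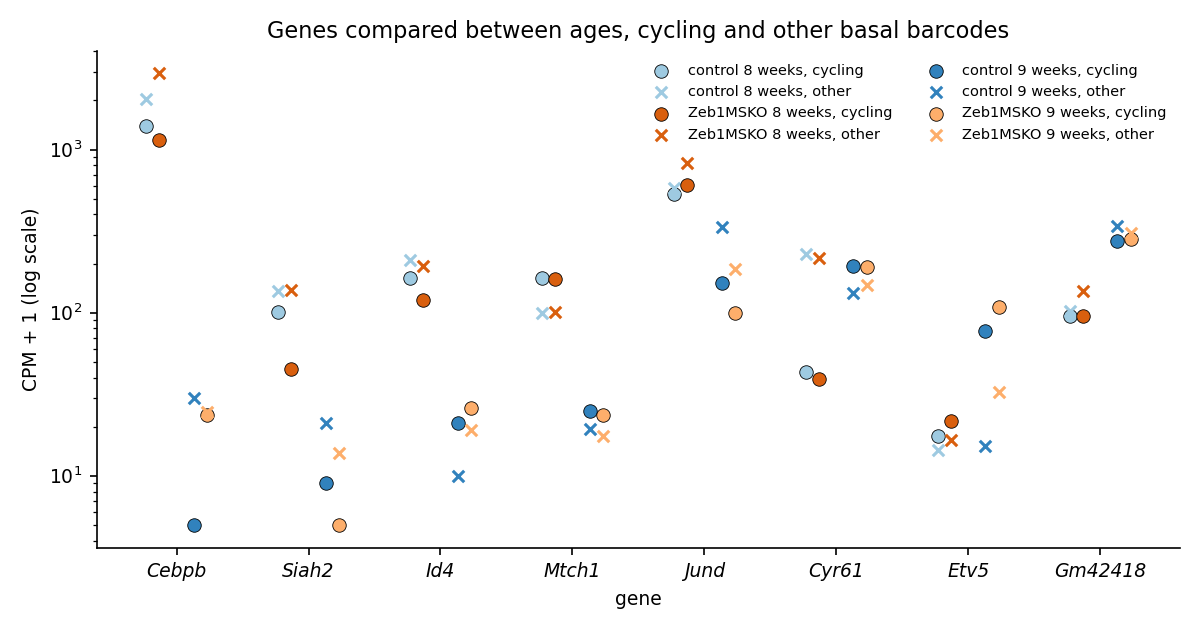
CPM + 1 (vertical, log scale) of 8 genes called between ages without hair keratin barcodes, shown over all cycling (circles) and other (crosses) basal barcodes of each library. Cebpb is above 1000 CPM in both libraries at 8 weeks and at 22.5 CPM or less in cycling barcodes at 9 weeks, and Cyr61 is higher at 9 weeks in circles and lower in crosses.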

How the data were processed

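The deposited matrix holds UMI counts per gene and barcode, aggregated by the authors over 4 libraries with Cell Ranger 2.1.0 on build mm10, per the submitters' processing notes; the barcode list deposited with it names the library by a suffix (a text label, no measurement). The sources used here do not say whether depth was equalised. Median depth ran from 6376 to 10529.5 UMIs per barcode (27998 genes, no barcode under 2566 UMIs), and 1372 barcodes shared a sequence with another library.

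The members and gene lists were chosen with earlier results of these data known. All barcodes were kept in the main results. Doublets were called per library with scanpy's version of Scrublet (scanpy 1.11.5) at an assumed rate of 8% and removed in 1 alternative; 4.24% to 5.11% were called, and 53.3% to 63.8% of simulated doublets were recovered. Counts were summed per library over cycling and other basal barcodes, and CPM are shares of these sums. edgeR 4.0.16 (quasi-likelihood, TMM, filterByExpr) tested 2 against 2 libraries, with DESeq2 1.42.0 as an alternative. The p-values weigh a difference against the spread between libraries, which may be technical. In the main genotype fit that spread holds the difference between ages or batches, and in the age fit that between genotypes. On simulated counts with 4-fold changes the genotype test recovered 185 of 195 genes, the interaction 167 of 200 and the age test 176 of 196. The simulation had a fixed spread and no age, batch or hair keratin difference between libraries. It therefore checks that the fits run and does not say which changes the real comparisons could find. Shares were compared by exact permutation over libraries. Replicate numbers stand for ages in the labels: log2 ratios of 9 to 8 weeks correlated between genotypes at 0.178 across genes in cycling and 0.455 in other basal barcodes (genes are not independent). Log2 ratios of Zeb1 MSKO to control correlated between ages at 0.0514 in cycling and -0.319 in other basal barcodes.

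Named genes were the rule genes, up to 10 called genes per direction (mean of at least 10 CPM), filled to 5 by smallest p where fewer passed, the 15 genes per direction with the largest ratio in their least library, and list members. Alternatives covered the UMI limit (3, 6, or 4 per 10000), thinning, a panel margin of 1, filtered barcodes (over 10% mitochondrial counts, under 500 genes or doublets), scaling, low-count filters, the replicate block and each library left out. The result for 1 gene is not reported here.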

Additional observations from a re-analysis of the deposited data

Results flagged for a closer look

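The genotype effect differed between cycling and other basal barcodes for 8 genes by the test of that difference (edgeR interaction). The adjusted p-values were 0.000611 for Msx1, 0.00509 for Cldn10, 4.03e-05 for Id1, 0.00084 for Id3 and 0.0129 for Sat1, with a higher value in Zeb1 MSKO cycling barcodes. They were 0.00509 for Sncg, 0.0043 for Lgals1 and 0.0278 for Igfbp2, with a lower value. At 8 weeks the Zeb1 MSKO value was above its control in cycling barcodes for each of the first 5 genes and below it for the last 3. The interaction was 2.40 for Id3 (SE 0.46), 2.04 for Sat1 (SE 0.46), -3.42 for Sncg (SE 0.72), -1.87 for Lgals1 (SE 0.39) and -1.77 for Igfbp2 (SE 0.41). In the Zeb1 MSKO library at 8 weeks 26 of 32 cycling basal barcodes held at least 2 hair keratin UMIs. Without such barcodes only Lgals1 and Sncg of the 8 were called, on 6 cycling barcodes of mixed markers left in that library.

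A signal outside the comparisons came from barcodes that met no lineage panel. In Zeb1 MSKO at 8 weeks 156 of 2047 such barcodes (7.62%) passed the limit of 4 cycle UMIs, and 139 of these held at least 2 hair keratin UMIs. The control at 8 weeks had 41 of 1384 (2 with hair keratins), the control at 9 weeks 12 of 469 (2) and Zeb1 MSKO at 9 weeks 57 of 728, or 7.83% (4 with hair keratins).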

How the results depend on the processing

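The cycling share of basal barcodes differed between genotypes by -0.018 percentage points. This turned to 0.0468 with a limit of 3 UMIs, 0.00862 after thinning and 0.0351 without mitochondrial, low-gene and doublet barcodes, and ran from -0.71 to 0.674 with 1 library left out. The hormone-sensing minus basal share (-0.335) ran from -0.504 to 0.0236 with 1 library left out. The luminal progenitor minus basal share stayed above 0 in the alternatives run (0.459 to 2.09 with 1 library left out).

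Genotype calls in cycling barcodes went from 0 to 54 without a filter on low counts and ran from 0 to 449 with 1 library left out. In other basal barcodes they were 52 without the filter and 2 with DESeq2, and ran from 0 to 2 with 1 library left out. Interaction calls went from 8 to 0 with DESeq2 and ran from 1 to 634 with 1 library left out. Age calls went from 1 to 34 without hair keratin barcodes, 178 without the filter, 18 with DESeq2 and 0 without filtered barcodes, and ran from 0 to 984 with 1 library left out. The causes were not tested, except that leaving out a library leaves 1 genotype or age with 1 library, assumed to vary like the other.

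The replicate block pairs libraries of an age, or of a genotype for the age test. It gave 3 calls in other basal barcodes, 0 for genotype in cycling barcodes and 0 between ages, with 1 residual degree of freedom.

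Genes higher and lower in cycling barcodes numbered 365 and 72 at 2-fold and 418 and 168 with a mean of at least 20 CPM, where fewer genes can pass, and 157 were lower against depth-matched barcodes. With 1 library left out they ran from 851 to 904 and from 311 to 483, the last without the control at 8 weeks. Of 346 results for 30 named genes under alternatives, 242 kept direction and side of the threshold and 1 turned: Cldn10, at -0.37 without hair keratin barcodes. In the control at 9 weeks 12 barcodes and 251341 UMIs limited every value, and 1 UMI there is about 4 CPM.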
